A study of Mus musculus with 8 samples.

Results

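The Krüppel-like factors (KLFs) are a family of transcription factors, and 10 of its genes were examined in mouse muscle stem cells: Klf2, Klf3, Klf4, Klf5, Klf6, Klf7, Klf9, Klf10, Klf13 and Klf15. They were found by gene symbol among 45706 gene lines, and all 10 had a line and passed the filter on low counts. RNA-seq covered 8 libraries of wild-type C57BL/6 cells from hindlimb muscle of females aged 8 to 12 weeks, sorted as positive for α7-integrin and CD34 and negative for CD45, Sca1, CD31 and CD11b. The RNA of 5 libraries was taken right after sorting, and that of 3 after 48 h on a 12 kPa hydrogel, in medium with 20% serum per the labels' growth protocol. Fresh replicates 1 to 3 formed sequencing run 1, and fresh replicates 4 and 5 shared run 2 with the cultured replicates. The labels do not say whether libraries came from separate or pooled animals or from separate cultures. P-values therefore cover the spread between these 8 libraries alone, and that spread may be technical.

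KLF proteins bind CACCC and GC-rich boxes in DNA through 3 zinc fingers near their C-terminal end, and differ in the part that recruits cofactors. Klf2, Klf4, Klf5, Klf6 and Klf7 belong to the subgroup best known for activating transcription, although Klf4 also represses. Klf3 binds the corepressor CtBP. Klf9, Klf10 and Klf13 carry a domain that binds the corepressor Sin3, and Klf15 stands somewhat apart, with roles in amino acid and lipid metabolism. Several KLF genes are early response genes, which cells switch on within minutes to hours of serum, stress or tissue dissociation. In muscle, Klf2 and Klf4 are known from myoblast fusion downstream of the kinase ERK5, Klf3 and Klf5 from the control of muscle genes, and Klf15 from nutrient metabolism.

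The members are spread over 10 chromosomes. Promoter sequences were found for 8 of the 10 in RefSeq's GRCm38.p6 annotation (not for Klf5 and Klf10). The last 150 bases before the start site are shown for Klf4, Klf6 and Klf9, which fell in culture, for Klf13, the Sin3-binding relative of Klf9 that did not pass the test, and for Klf2. All are written 5′ to 3′ on the gene's strand and end before both the RefSeq and the GENCODE start. Capitals mark the GC box GGGCGG, the CACCC box that KLF proteins bind, the CCAAT box of the factor NF-Y, the half-site TGACG of CREB relatives and the MEF2 box, each on either strand.
Klf9, chr19:23141076-23141225, plus strand: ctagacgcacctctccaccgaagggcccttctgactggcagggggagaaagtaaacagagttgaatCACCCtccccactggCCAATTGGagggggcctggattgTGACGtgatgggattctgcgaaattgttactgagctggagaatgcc
Klf13, chr7:63938916-63939065, minus strand: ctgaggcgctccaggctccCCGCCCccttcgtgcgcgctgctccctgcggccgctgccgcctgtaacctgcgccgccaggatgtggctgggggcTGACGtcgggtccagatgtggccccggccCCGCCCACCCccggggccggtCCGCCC
Klf4, chr4:55532476-55532625, minus strand: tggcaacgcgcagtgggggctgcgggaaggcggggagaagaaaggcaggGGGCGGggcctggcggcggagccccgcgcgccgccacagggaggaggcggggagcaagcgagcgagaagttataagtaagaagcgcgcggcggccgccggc
Klf6, chr13:5861332-5861481, plus strand: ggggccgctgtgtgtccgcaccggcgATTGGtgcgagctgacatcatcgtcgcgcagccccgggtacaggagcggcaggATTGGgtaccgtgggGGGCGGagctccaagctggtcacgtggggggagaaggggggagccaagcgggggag
Klf2, chr8:72318883-72319032, plus strand: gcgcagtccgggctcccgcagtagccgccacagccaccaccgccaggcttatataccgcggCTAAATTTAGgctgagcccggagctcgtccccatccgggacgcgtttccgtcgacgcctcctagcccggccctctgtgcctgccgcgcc

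Searched over 250 bases before the RefSeq start, Klf9 held no GC box, 3 CCAAT boxes, 1 CACCC and 1 TGACG. Klf13 held 3 GC boxes, 2 CCAAT boxes, 1 CACCC and 1 TGACG. Klf4 had 4 GC boxes and Klf3 had 6, while Klf6 had 1 GC box and 4 CCAAT boxes. Klf2 was the only member of the 8 with a MEF2 box, and that box was added to the search after the sequence had been seen. Of 32851 promoter windows of this length in RefSeq, 32.7% held a GC box, 52.0% CACCC, 33.8% CCAAT, 17.8% TGACG and 2.92% a MEF2 box. None of the 8 held TATAAA (12.4% of windows) or a CArG box (1.47%), the site of serum response factor. GC box and CACCC matches can share bases, as they do in Klf13. In Klf9 the stretch CCAATTGG was counted as 2 CCAAT boxes, on opposite strands, that share bases. A match of letters is a description and says nothing of which protein is bound.

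Total counts were 13919508 to 20068199 per library. Mitochondrial transcripts took 5.98 to 11.8% of counts in run 1, 25.4 to 29.3% in run-2 fresh libraries and 12.8 to 21% in cultured ones. The markers of muscle stem cells (Pax7, Myf5, Vcam1, Calcr, Itga7, Chodl, Cdh15, Spry1) were present in every fresh library, with a summed level of 2697 to 4675 CPM (counts per 1000000 counts of the scaled library), and stood at 445 to 499 CPM in culture, where 7 of the 8 fell. Markers of cells the sort should remove were also seen in fresh libraries, and their sums were lower in culture, though not every gene was. The summed level went from 93.7 to 137 CPM in fresh to 1.70 to 47.0 CPM in cultured libraries for endothelial cells, from 470.3 to 2724 to 35.3 to 129.9 CPM for pericytes and smooth muscle, and from 741 to 1328 to 23.9 to 35.9 CPM for fibro-adipogenic cells. Most of the fibro-adipogenic sum in fresh libraries came from Col3a1 (446 ± 102 CPM), Dcn (346 ± 166 CPM) and Gsn (242 ± 108 CPM). Pdgfra (5.14 ± 4.96 CPM) and Ly6a (0.599 ± 0.559 CPM) of the same list were low there. In bulk RNA, fewer cells of a type and less RNA per cell cannot be told apart.

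Setting cultured against fresh cells asks how KLF transcripts differ after 48 h outside the animal. Of the 10 genes, 5 fell in culture (Klf3, Klf4, Klf6, Klf7 and Klf9) and 5 did not pass the test, which was the quasi-likelihood test of edgeR with run as a term, over 19054 genes, called at a Benjamini-Hochberg adjusted p under 0.05. None rose by edgeR, and none had a rise at an unadjusted p under 0.05. DESeq2 and limma-voom likewise called 5 lower and none higher. Over all genes 26.9% were called, as 18.0% (3431) lower and 8.87% (1691) higher, and without scaling factors the split was 2857 lower and 2452 higher. The median log2 fold change was -1.68 over the 10 genes and -0.21 over all genes tested. All cultured libraries lay below all fresh ones for 6 members (26.1% of all genes) and above them for 1 (13.7%), so that 39.9% of all genes did not overlap.

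**Figure D1:**
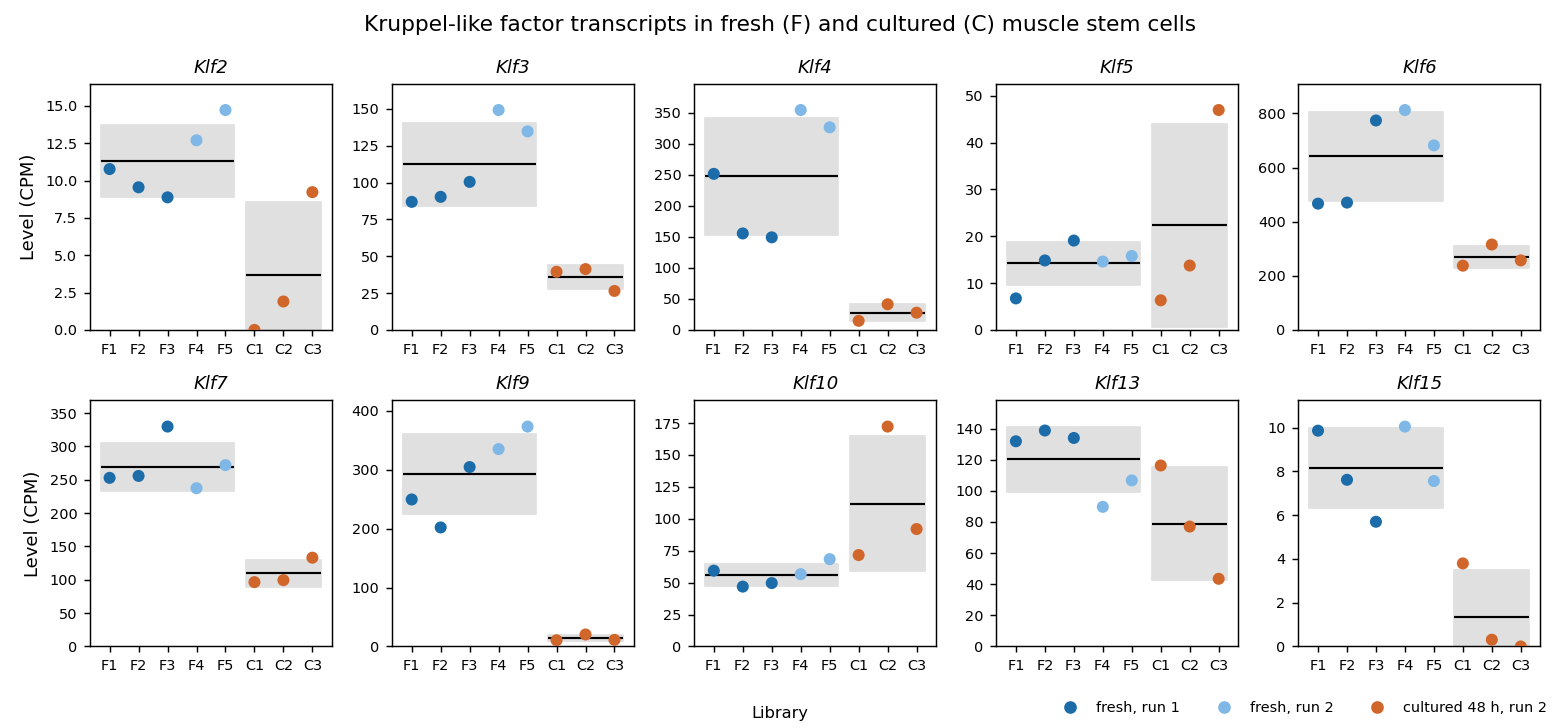
Level of each gene in CPM (vertical axes from 0, scaled per gene) in the 5 fresh (F) and 3 cultured (C) libraries, with points coloured by group and run, a line at the group mean and grey for 1 SD. The cultured points of Klf3, Klf4, Klf6, Klf7, Klf9 and Klf15 lie below every fresh point, and those of Klf10 above.

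Klf9, a Sin3-binding factor induced by glucocorticoid and thyroid hormone, fell the furthest of the 10. Its level was 249.7, 202, 305, 335 and 373 CPM in fresh replicates 1 to 5 and 10.5, 20.3 and 11.2 CPM in cultured replicates 1 to 3. Every fresh library thus stood well above every cultured one, and the mean of 293 ± 68.1 CPM (± SD, n = 5) compared with 14.0 ± 5.47 CPM in culture (n = 3), numbers that hold for the means that follow. The log2 fold change was -4.66 ± 0.35 (± SE), or 25.3-fold lower (adjusted p = 0.000133). Unless another setting is named, fold changes here and below come from the model with run as a term. They set cultured against run-2 fresh libraries and so differ from the ratio of the printed means. Klf9 (ENSMUSG00000033863) lies at chr19:23141226-23168134 in GENCODE M21 (mm10).

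Klf10, a Sin3-binding gene induced early by TGF-β, was higher in every cultured library but did not pass the test. Fresh replicates 1 to 5 held 59.4, 46.9, 49.7, 56.6 and 68.4 CPM, and cultured replicates 1 to 3 held 71.6, 172 and 92.0 CPM. The groups did not overlap, but cultured replicate 1 lay close to fresh replicate 5. The log2 fold change was 0.84 ± 0.39, with a 95% interval from -0.05 to 1.73 (adjusted p = 0.145). The call depended on the setting, since Klf10 was higher without cultured replicate 1 (1.14; adjusted p = 0.0345), with no run term (0.99; adjusted p = 0.0292) and against run-1 fresh libraries alone (1.18; adjusted p = 0.0419). It stayed uncalled in the other 14 of 17 alternatives. Without cultured replicate 2, its highest library, the log2 fold change was 0.41 (adjusted p = 0.397).

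Klf13, the closest relative of Klf9 in this set and a regulator of chemokine genes in T cells, overlapped between groups. It stood at 132, 139, 134, 89.7 and 107 CPM in fresh replicates 1 to 5 and at 116, 77.0 and 43.5 CPM in cultured replicates 1 to 3. The log2 fold change was -0.32 ± 0.37 (95% interval -1.16 to 0.53; adjusted p = 0.577) and 0.05 without scaling factors, so no direction is given. Among the 3 Sin3-binding members, 1 fell and none passed the test upward. Klf10 (ENSMUSG00000037465) lies at chr15:38291463-38300706 and Klf13 (ENSMUSG00000052040) at chr7:63886351-63938915.

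Ratios between 2 genes within a library do not depend on how libraries are scaled. The ratio of Klf9 to Klf10 was 4.21, 4.31, 6.14, 5.92 and 5.46 in fresh replicates 1 to 5, and 0.147, 0.118 and 0.122 in cultured replicates 1 to 3. Klf9 therefore had more counts than Klf10 in each fresh library and fewer in each cultured one. Klf9 to Klf13 went from a mean of 2.57 ± 1.00 to 0.204 ± 0.0984, again with no overlap. These pairs were chosen after the values were seen.

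**Figure D2:**
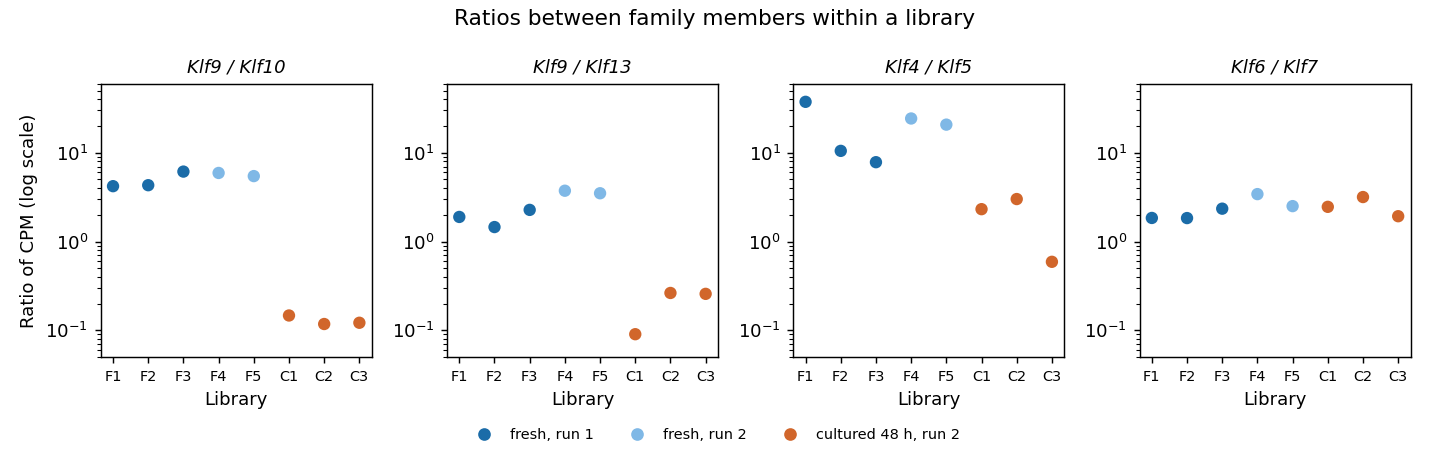
Ratio of CPM of 2 genes in each library on a log axis, for 4 pairs, with points coloured by group and run. Klf9 to Klf10 lies between 4.21 and 6.14 in fresh and between 0.118 and 0.147 in cultured libraries, while Klf6 to Klf7 overlaps between groups (1.84 to 3.42 and 1.93 to 3.17).

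Among the 5 members best known as activators, 3 fell. Klf4, a factor of endothelial and epithelial cells and 1 of the reprogramming factors, had 252, 156, 149, 355 and 327 CPM in fresh replicates 1 to 5 and 14.6, 41.4 and 27.8 CPM in cultured replicates 1 to 3. All cultured libraries were far below the lowest fresh one. The mean fell from 248 ± 94.7 to 27.9 ± 13.4 CPM. With run as a term, the log2 fold change was -3.61 ± 0.43 (12.2-fold; adjusted p = 0.000863). Against run-1 fresh libraries alone it was -2.65 (adjusted p = 0.00420). Klf4 (ENSMUSG00000003032) lies at chr4:55527143-55532466.

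Klf6, an injury-induced activator, was the most abundant member in all 8 libraries. Its level was 467, 470.5, 774, 812.5 and 682 CPM in fresh replicates 1 to 5 and 237, 316 and 257 CPM in cultured replicates 1 to 3. The groups were apart, though the gap was narrower than for Klf4 or Klf9. The fall was -1.47 ± 0.28 on the log2 scale (2.77-fold; adjusted p = 0.00581). Klf6 (ENSMUSG00000000078) lies at chr13:5861482-5870394.

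Klf7, a relative of Klf6 known from neurons and from the quiescence of muscle stem cells, had the smallest fall that passed the test. Fresh replicates 1 to 5 held 253, 256, 329.8, 237 and 272 CPM, and cultured replicates 1 to 3 held 96.5, 99.5 and 133 CPM. The fresh libraries lay close together and all cultured ones were below them. The log2 fold change was -1.21 ± 0.24 (2.32-fold; adjusted p = 0.00704), and -0.79 without scaling factors (adjusted p = 0.0580), which ended the call. Klf7 (ENSMUSG00000025959) lies at chr1:64029447-64122282.

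Klf2 and Klf5, the other activators, were low and spread widely among cultured libraries. Klf2, a gene of quiescent T cells and of endothelium under flow, had 10.8, 9.55, 8.88, 12.7 and 14.7 CPM in fresh replicates 1 to 5 but 0, 1.90 and 9.22 CPM in cultured replicates 1 to 3. A count of 0 in cultured replicate 1 allows up to 0.158 CPM, while cultured replicate 3 lay within the fresh range. Its log2 fold change of -1.88 ± 1.47 (95% interval -5.22 to 1.45; adjusted p = 0.383) became -3.78 without cultured replicate 3 (adjusted p = 0.0975) and -1.24 without cultured replicate 1 (adjusted p = 0.246). Klf5, a factor of proliferating epithelium and smooth muscle, had 6.72, 14.8, 19.1, 14.6 and 15.8 CPM in fresh and 6.32, 13.7 and 46.9 CPM in cultured replicates. Here cultured replicate 3 alone lay above the fresh range. The log2 fold change was 0.56 ± 0.84 (95% interval -1.35 to 2.47; adjusted p = 0.675) and turned to -0.57 without cultured replicate 3 (adjusted p = 0.619). Klf2 (ENSMUSG00000055148) lies at chr8:72319033-72321656 and Klf5 (ENSMUSG00000005148) at chr14:99298691-99315036.

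Klf3, the CtBP-binding repressor, fell by 1.99 ± 0.27 on the log2 scale (3.97-fold; adjusted p = 0.00154). Fresh replicates 1 to 5 held 86.9, 90.3, 100.45, 149 and 135 CPM, and cultured replicates 1 to 3 held 39.5, 41.3 and 26.4 CPM. Both run-2 fresh libraries were above the run-1 ones, and against run-1 fresh libraries alone the log2 fold change was -1.31 (adjusted p = 0.00707). Klf3 (ENSMUSG00000029178) lies at chr5:64803388-64832901.

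Klf15, the metabolic regulator, was the least abundant member in cultured cells. It had 9.86, 7.61, 5.70, 10.04 and 7.56 CPM in fresh replicates 1 to 5, and 3.79, 0.309 and 0 CPM in cultured replicates 1 to 3, where the 0 allows up to 0.153 CPM. All cultured libraries were below all fresh ones, yet they differed widely among themselves, and the test did not pass (-2.68 ± 1.54; 95% interval -6.18 to 0.82; adjusted p = 0.234). Without cultured replicate 1, which held most of the cultured counts (72 of 78), it was -5.71 (adjusted p = 0.00891). Klf15 (ENSMUSG00000030087) lies at chr6:90462576-90475238.

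**Figure D3:**
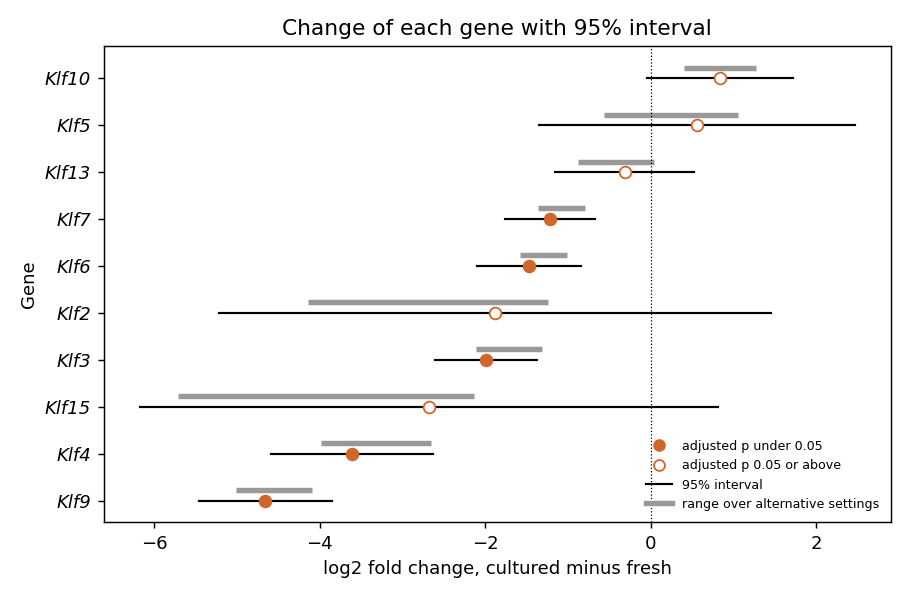
Log2 fold change of each gene, cultured minus fresh (horizontal axis), with its 95% interval (black line) and the range of fold changes over 17 alternative settings (grey bar). Filled points passed an adjusted p of 0.05, and the 5 filled intervals lie below 0, with Klf9 lowest at -4.66.

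The summed level of the 10 genes was 1526, 1392, 1875, 2073 and 2002 CPM in fresh replicates 1 to 5 and 597, 783 and 647 CPM in cultured replicates 1 to 3. No cultured library reached the lowest fresh one. Klf6 held 35.8 ± 4.35% of the sum in fresh and 39.9 ± 0.310% in cultured libraries. Klf9 went from 16.4 ± 1.48% to 2.03 ± 0.489% and Klf4 from 13.8 ± 4.05% to 4.01 ± 1.44%, while Klf10 went from 3.21 ± 0.519% to 16.1 ± 5.25%. The share of a member depends on all the others, and no test was run on shares.

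**Figure D4:**
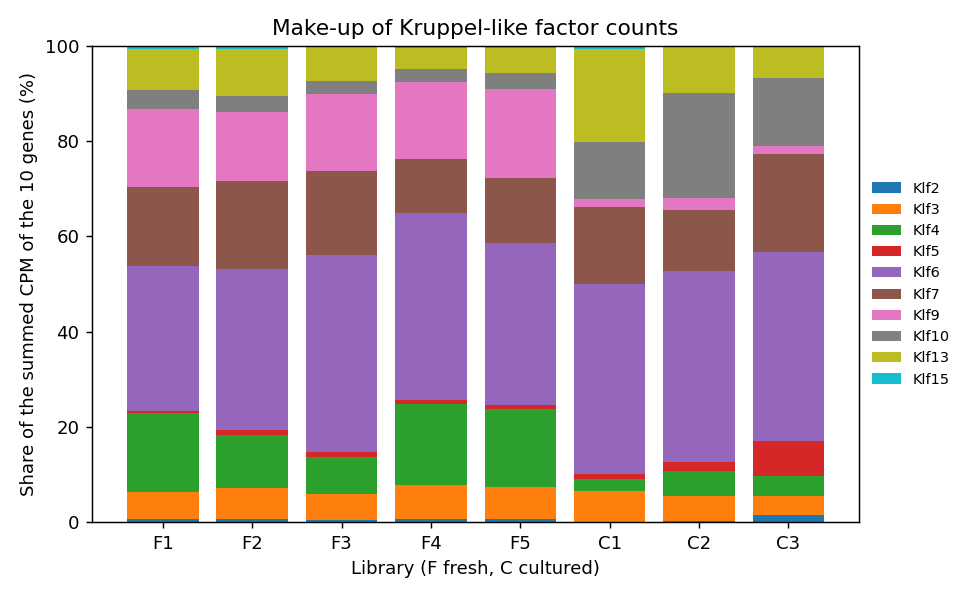
Share of each gene in the summed CPM of the 10 genes (percent, stacked bars from 0 to 100) in each fresh (F) and cultured (C) library. The Klf9 band covers 14.5 to 18.7% in fresh and 1.73 to 2.60% in cultured libraries, and the Klf10 band 2.65 to 3.89% and 12.0 to 21.99%.

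To compare genes with each other, CPM were divided by exon length in kilobases. In fresh cells the order of this level per length was Klf6 (146 ± 37.5 CPM per kb), Klf4 (81.2 ± 31.1), Klf9 (60.9 ± 14.1), Klf7 (33.1 ± 4.41), Klf13 (16.0 ± 2.80), Klf10 (13.4 ± 2.03), Klf3 (9.99 ± 2.49), Klf2 (6.13 ± 1.29), Klf15 (2.92 ± 0.650) and Klf5 (2.73 ± 0.874). Klf4 and Klf9 were within 1 SD of each other, as were Klf13 and Klf10, and Klf15 and Klf5. In culture Klf6 was again first (61.5 ± 9.26), followed by Klf10 (26.8 ± 12.7), Klf7 (13.5 ± 2.51), Klf13 (10.5 ± 4.84) and Klf4 (9.16 ± 4.38), and the other 5 lay between 0.490 and 4.29 CPM per kb. Here Klf7 and Klf13 were within 1 SD of each other, as were Klf13 and Klf4. Klf9 stood in the third place in fresh and the eighth in cultured cells, and Klf10 in the sixth and the second. With the length of the principal transcript in place of all exons, Klf3, whose exons sum to 11243 bases against 5221 in that transcript, moved from the seventh to the fifth place in fresh cells.

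Fresh libraries of the 2 runs were compared as well, since cultured libraries were all in run 2. The runs differed in how many gene lines had at least 1 count. These were 32594 to 34585 in run-1 fresh libraries, 20365 and 20788 in run-2 fresh libraries and 15282 to 17703 in cultured ones. No member was called between runs by edgeR, DESeq2 or limma-voom, which called 36, 903 and 1371 of all 19054 genes at an adjusted p under 0.05. By edgeR that was 0.189% of all genes (0.0945% higher in run 2 and 0.0945% lower). At an unadjusted p under 0.05, these tools had 1, 0 and 3 members, and the share of all genes at that threshold was not taken. The log2 difference, run 2 minus run 1, was 0.88 ± 0.41 for Klf4 (adjusted p = 0.364), 0.62 ± 0.27 for Klf3 (adjusted p = 0.317) and -0.46 ± 0.38 for Klf13 (adjusted p = 0.712). With run in the model, culture fold changes rest on fresh replicates 4 and 5. All 5 members that fell also passed the test with run 2 alone and against run-1 fresh libraries alone.

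Most early response genes of tissue dissociation on the list examined fell in culture. Of 20 such genes, 16 fell and none rose by edgeR (17 lower and none higher at an unadjusted p under 0.05), while DESeq2 called 16 and limma-voom 17 lower. The list median was -5.29 on the log2 scale. Fos, an AP-1 subunit, fell from 2640 ± 996 to 11.2 ± 4.45 CPM (-8.31 ± 0.50; adjusted p = 4.84e-05), while Nr4a1, an orphan nuclear receptor, changed by -7.34 ± 0.70 on the log2 scale (-8.24 without cultured replicate 2). Egr2, a zinc finger factor, changed by -7.09 ± 1.44, and by -10.31 without cultured replicate 3 and -6.45 without cultured replicate 1. The summed level of the list was 46900, 35090, 30400, 51690 and 46090 CPM in fresh replicates 1 to 5 and 2341, 1874 and 1556 CPM in culture. Klf4 had its 2 lowest fresh values in the same libraries, replicates 2 and 3, and its highest in replicate 4, whereas Klf7 was highest in replicate 3. Egr1 alone gave 13840 to 25487 CPM of the fresh sums, and single genes of the list differed in their order. Egr1, Fos and Jun were also lowest in replicates 2 and 3 and highest in replicate 4. Btg2, Zfp36 and Atf3 were instead lowest in replicates 4 and 5. The part of the response to isolation in the KLF levels was not tested.

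Among marker lists of other cells, fresh replicate 1 stood apart, with a pericyte and smooth muscle sum of 470.3 CPM against 1674 to 2724 CPM in the other fresh libraries and a Schwann cell sum of 50.4 against 278 to 811 CPM. In that library Klf4 (252 CPM) and Klf9 (249.7 CPM) were not the lowest of the fresh libraries, while Klf3 (86.9 CPM), Klf5 (6.72 CPM) and Klf6 (467 CPM) were. Without fresh replicate 1 all 5 falls passed the test. With run in the model, culture fold changes rest on fresh replicates 4 and 5, so leaving out replicate 1 could hardly move them. Klf9 went from -4.658 to -4.665 and Klf4 from -3.608 to -3.615 on the log2 scale. This result therefore says nothing of the part of other cells. Of 9 endothelial markers, 7 were tested and 2 fell, Cdh5 (18.8 ± 9.37 CPM in fresh cells, with 3 counts in all cultured libraries) and Tek (74.3 ± 14.2 to 1.24 ± 1.53 CPM), and Cldn5 was at or near 0 in every fresh library (mean 0.0360 CPM). In culture 3 of the 9 were at 0. Pecam1, which encodes the CD31 used to exclude cells in the sort, had 4.50, 2.67, 4.32, 0.884 and 0.195 CPM in fresh replicates 1 to 5 and 35.1, 0.103 and 38.1 CPM in cultured replicates 1 to 3. It was thus high in 2 of the 3 cultured libraries, made up most of their endothelial sums, and did not pass the test (5.48 ± 1.95; adjusted p = 0.0677, unadjusted 0.0210). Of 8 pericyte markers 6 fell and of 7 fibro-adipogenic ones 5. The pericyte and smooth muscle marker Tagln did not pass the test (adjusted p = 0.804). It had 29.0 to 74.3 CPM in fresh libraries and 105.0, 19.7 and 13.7 CPM in cultured replicates 1 to 3. The part of other cells in the KLF results was not tested.

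Of the 7 other KLF genes in the table, 5 were tested, and 1 fell and none rose by edgeR (1 higher at an unadjusted p under 0.05, and 1 called higher by DESeq2 and by limma-voom), with a list median of -2.58 on the log2 scale. Klf12, a CtBP-binding repressor like Klf3, fell from 13.2 ± 3.62 to 0.256 ± 0.255 CPM (-5.39 ± 1.18; adjusted p = 0.0104). Leaving out fresh replicate 5 gave an adjusted p of 0.0503 and run 2 alone 0.0852, and the log2 fold change was -4.76 without cultured replicate 1 and -6.30 without cultured replicate 3. Klf8, the third CtBP-binding member, had 1.58 to 2.27 CPM in fresh and 8.10 to 9.73 CPM in cultured libraries (2.43 ± 0.83; adjusted p = 0.0595), and was named after its value was seen. Klf11, close to Klf10, had 44.4 ± 12.8 and 5.36 ± 4.82 CPM (-2.58 ± 1.25; adjusted p = 0.162), with a count of 0 in cultured replicate 1, and without that library it was lower (-1.93; adjusted p = 0.00464). Without cultured replicate 2 its log2 fold change was -3.18. In the related SP family, 4 of 9 genes were tested (median -0.77) and 1 fell, Sp4 (-3.51 ± 0.91; adjusted p = 0.0216), named after its value was seen. Sp1, the most abundant, had 407 ± 60.1 and 258 ± 122 CPM (adjusted p = 0.322, and 0.0280 without cultured replicate 1), and Sp3 102 ± 24.6 and 67.8 ± 23.6 CPM (adjusted p = 0.104).

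Genes that act with KLF proteins were mixed. Of 11 corepressor genes, 2 rose and none fell by edgeR (1 lower at an unadjusted p under 0.05, none by DESeq2 or limma-voom), with a list median of 0.58. These were Rcor1 (1.17 ± 0.32; adjusted p = 0.0256), a partner of CtBP, and the deacetylase Hdac2 (0.75 ± 0.24; adjusted p = 0.0474), and they lost the call in 7 and 9 of 17 alternatives. Rcor1 lost it without fresh replicate 4 (adjusted p = 0.0892), fresh replicate 5 (0.134) or cultured replicate 2 (0.0542), and Hdac2 without any 1 library other than cultured replicate 1 (0.0735 to 0.190). The corepressor Sin3a itself did not pass (139 ± 25.6 and 81.3 ± 9.76 CPM; adjusted p = 0.119). Of 6 coactivator genes (median 0.32) 2 rose, Wdr5 (2.53 ± 0.48, and 1.15 against run-1 fresh libraries alone) and Smarca4 (1.41 ± 0.28; adjusted p = 0.0531 without fresh replicate 4), and the acetyltransferase Kat2b fell (-2.64 ± 0.78; adjusted p = 0.0359, lost in 10 of 17 alternatives, and -3.34 without cultured replicate 2). Kat2b lost the call without any 1 fresh library (adjusted p of 0.0551 to 0.145) or cultured replicate 3 (0.0758). DESeq2 called 3 coactivator genes higher and 2 lower, and limma-voom 2 and 2. Of 10 enzymes that attach or remove ubiquitin on KLF proteins, 4 rose and 1 fell by edgeR (3 lower at an unadjusted p under 0.05), with a median of 0.25, while DESeq2 and limma-voom each called 4 higher and 3 lower. Smurf2 rose by 1.57 ± 0.26 (adjusted p = 0.00348) and Fbxo22 by 1.40 ± 0.35 (adjusted p = 0.0172, lost in 6 of 17 alternatives, among them those without fresh replicate 4 at 0.0717 and fresh replicate 5 at 0.0795). Btrc fell at an adjusted p of 0.0499 (-2.26 ± 0.73), which was 0.0601 to 0.251 without any 1 library other than cultured replicate 3, and its log2 fold change was -3.32 without that one. Smurf1 (1.08 ± 0.31) and Usp10 (1.31 ± 0.32) also rose and were singled out once values were known.

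Upstream pathways were examined by lists of their genes. Of 10 genes of the ERK5 and MEF2 route to Klf2 and Klf4, 2 fell and none rose by edgeR (1 higher at an unadjusted p under 0.05, none by DESeq2 or limma-voom), with a list median of -0.48. Mef2c fell from 20.5 ± 11.6 to 0.0849 ± 0.147 CPM (-7.18 ± 1.31; adjusted p = 0.00532; -6.58 and -10.85 without cultured replicates 1 and 3; adjusted p = 0.0532 with run 2 alone), and the deacetylase Hdac4 from 190.3 ± 17.0 to 47.2 ± 28.5 CPM (-1.98 ± 0.44; adjusted p = 0.0114, 0.0713 without fresh replicate 5 and 0.0507 without scaling factors). The kinase gene Mapk7, which encodes ERK5, did not pass (10.8 ± 3.40 and 15.6 ± 12.1 CPM; adjusted p = 0.337). Of 11 glucocorticoid-linked genes tested, a route known to induce Klf9 and Klf15, 7 fell and none rose by edgeR (none at an unadjusted p under 0.05, and 6 and 9 lower by DESeq2 and limma-voom), with a median of -2.77. Another 4 did not pass, among them Fkbp5 (32.1 ± 9.18 and 38.8 ± 41.0 CPM; adjusted p = 0.889) and Tsc22d3 (36.7 ± 25.9 and 9.50 ± 14.6 CPM; adjusted p = 0.261). These 2 were named once values were known. The phosphatase gene Dusp1, which is also in the dissociation list, fell from 1378 ± 320 to 80.5 ± 21.9 CPM (-4.38 ± 0.29; adjusted p = 6.56e-05). Zbtb16 had 62.9 ± 30.4 CPM in fresh cells and 3 counts in all cultured libraries, a ratio of run-2 fresh to cultured cells of 893 (95% counting interval 305 to 4334; adjusted p = 0.000157). The clock gene Per1 fell by 3.26 ± 0.93 (adjusted p = 0.0307, lost in 6 of 16 alternatives; -5.26 without cultured replicate 1; adjusted p of 0.0507 to 0.0922 without fresh replicate 1, 3, 4 or 5 or cultured replicate 2), and the receptor gene Nr3c1 from 162 ± 37.2 to 75.6 ± 28.2 CPM (adjusted p = 0.0132).

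Of 11 TGF-β pathway genes, the route that induces Klf10, 5 fell and 1 rose, with a median of -0.74. These values describe the list after 1 gene had been left out with its values known, so they are not those of the full list. The ligand gene Tgfb3 fell from 99.9 ± 18.5 to 0.819 ± 0.724 CPM (-6.65 ± 0.96; adjusted p = 0.00197; -6.02 without cultured replicate 1), and the mediator Smad3 changed by -2.93 ± 0.66 (adjusted p = 0.0119, and 0.0570 without fresh replicate 5). The receptor gene Tgfbr2 changed by -3.39 ± 0.94 (adjusted p = 0.0280), and by -2.78 and -4.02 without cultured replicates 1 and 2. It lost the call without fresh replicate 4 (adjusted p = 0.0942), fresh replicate 5 (0.103) or cultured replicate 3 (0.0572). The gene that rose, singled out once values were known, was the inhibitory Smad7, a target of the pathway (27.2 ± 6.37 to 65.0 ± 41.3 CPM; 1.66 ± 0.51; adjusted p = 0.0424). DESeq2 also called 1 gene of the list higher and limma-voom none. Skil (-1.25 ± 0.21; adjusted p = 0.00390) and Tgif1 (-0.90 ± 0.23; adjusted p = 0.0200) fell as well by edgeR, and were named once values were known. The list mixes genes of different roles, so its counts and median give no level of pathway activity, which was not tested.

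Genes known as KLF targets also went both ways. Among 8 tested targets of Klf2 and Klf4, 2 rose and 3 fell, with a median of 0.16, or 0.32 with genes at 0 in culture set to their bound. Npnt, the matrix protein gene linked to Klf2 and Klf4 in myoblast fusion, rose from 2.57 ± 1.61 to 158 ± 28.0 CPM (6.16 ± 0.93; adjusted p = 0.00254; 5.36 and 8.47 without fresh replicates 4 and 5). The cell cycle inhibitor Cdkn1a rose by 2.48 ± 0.34, and 1.55 against run-1 fresh libraries alone, while Cdkn1b fell by 2.08 ± 0.32. Cdkn1c and Itgb7 also fell, had no count in culture and were named once their values had been seen. Cdkn1c was at least 440.0-fold and Itgb7 at least 72.1-fold lower than in run-2 fresh libraries, taking 3 counts in all cultured libraries together as the limit. Of 10 genes of metabolism regulated by Klf15, 4 fell and none rose by edgeR (none at an unadjusted p under 0.05, none by DESeq2 or limma-voom), with a median of -0.66. The fatty acid transporter gene Cd36 was at least 452.5-fold lower with no count in culture, glutamine synthetase Glul fell from 715 ± 198 to 58.8 ± 34 CPM (-3.12 ± 0.44) and lipoprotein lipase Lpl from 118 ± 50.4 to 25.1 ± 17.2 CPM (-2.75 ± 0.61; adjusted p = 0.0690 without fresh replicate 4, and -1.65 with an adjusted p of 0.0767 against run-1 fresh libraries alone). The glucose transporter gene Slc2a4, singled out once values were known, was at least 47.2-fold lower with no count in culture. Another 6 genes of this list did not pass (adjusted p of 0.1428 to 0.9725) and went both ways on the log2 scale. They were Pdk4 (-0.67), Bckdha (-0.64), Bcat2 (-0.48), Prodh (-0.14), Acsl1 (0.88) and Slc25a20 (1.57).

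The gene with the most similar profile of log2 CPM over the 8 libraries was looked up for each member among 7912 protein-coding genes with a mean of at least 10 CPM. For Klf9 it was Pnrc1, a nuclear receptor coactivator (Pearson r = 0.999), for Klf4 Zfp36l1, an mRNA decay factor (0.997), and for Klf3 Phactr2 (0.996). The others were Tep1 for Klf2 (0.994), Sox8 for Klf15 (0.992), Galnt15 for Klf7 (0.990), Dnajc18 for Klf13 (0.988), Nf1 for Klf6 (0.980), Ctcf for Klf10 (0.968) and Fam118b for Klf5 (0.967). These values are descriptions, since the libraries share 2 groups and 2 runs.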

How the data were processed

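The values are expected counts, 1 column per library, in a table the authors deposited. STAR, RSEM and build mm10 were used, per the submitters' processing notes; no source used here gives versions, annotation or strand setting. RSEM divides reads that fit several genes, and 50.1% of values above 0 were not whole (any remainder counted), so counts were rounded. Lines of 92 spike-in sequences were left out, and 2423 lines without identifier (0.385 to 0.568% of counts) stayed in under their symbol. RNA was amplified as cDNA without molecular identifiers that the labels mention, so limits for counts of 0 and counting intervals cover counting error only.

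Genes passing filterByExpr by group were tested with edgeR 4.0.16 in R 4.3.3 (TMM scaling, run and culture as terms, 5 residual degrees of freedom, Benjamini-Hochberg at 0.05). CPM use the library size times its TMM factor. Each SE was the fold change over the root of F, an approximation that the 95% intervals share. DESeq2 1.42.0 and limma 3.58.1 were alternatives. Code was tested on simulated data.

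Members and lists were chosen with earlier results of these data known. All 10 KLF genes are named. From each functional list, called genes with a mean of 10 CPM or more were ranked by size of change and the first 3 named; with fewer than 2 called, the 2 highest by level were named. The most similar gene to each member by Pearson r is also named. A value without a library is given where it moved by more than 1.5 times. From the TGF-β list 1 gene was left out after the values were seen and is not reported here.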

Additional observations from a re-analysis of the deposited data

Results flagged for a closer look

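Of 55 values checked in the 5 fresh libraries with Dixon's criterion, 2 had a library far from the others, where chance flags about 1 in 20 groups, and neither was a KLF gene. Zbtb16 reached 116.4 CPM in its highest fresh library, replicate 3, against 55.4 CPM in the next. Tgfbr2 was at 53.7 CPM in its lowest fresh library, replicate 1, against 88.1 CPM in the next.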

How the results depend on the processing

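Klf3, Klf4 and Klf9 kept their direction and their call in all 17 alternatives, with log2 fold changes of -2.11 to -1.31, -3.98 to -2.65 and -5.01 to -4.10. Klf6 lost its call with the replicate block and Klf7 without scaling factors, and neither changed direction. The number of members called higher was 1 (Klf10) with no run term and against run-1 fresh libraries alone, and 0 to 1 when 1 library was left out. The number called lower was 4 to 6. Over all genes, higher and lower calls were 1013 and 1767 with run 2 alone, and 896 to 2198 and 2441 to 3965 without 1 library, the lowest higher counts being those without fresh replicate 5 (896) and fresh replicate 4 (908). Calls between runs were 903 with DESeq2, 1371 with limma-voom, 81 without a filter and 1 (without fresh replicate 5) to 117 (without cultured replicate 1) when 1 library was left out, against 36. Without scaling factors the median of all genes was 0.03, against -0.21.

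Replicate numbers 1 to 3 occur in both groups, but the deviations of same-numbered libraries had correlations of 0.0296, 0.0103 and 0.0108, and the labels give no shared source, so the numbers were not treated as pairs. Under the replicate block 1081 genes were higher and 1401 lower, 4 members were lower and none higher, and Klf6 was at -1.05 (adjusted p = 0.0585). Each of the 3 fresh libraries correlated best with the cultured one of its own number.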

Other observations

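The cultured libraries differed among themselves in the KLF genes that did not pass the test. Cultured replicate 1 had the highest Klf13 (116 CPM) and Klf15 (3.79 CPM) and the lowest Klf2 (0 CPM) and Klf5 (6.32 CPM) of the 3, while cultured replicate 3 had the lowest Klf13 (43.5 CPM) and Klf15 (0 CPM) and the highest Klf2 (9.22 CPM) and Klf5 (46.9 CPM). Cultured replicate 2 had the highest Klf10 (172 CPM). Markers of muscle fibres summed to 77.6, 25.4 and 11.3 CPM in cultured replicates 1 to 3 and those of endothelial cells to 37.4, 1.70 and 47.0 CPM. Single genes carried most of the larger sums, since Acta1 gave 60.97 CPM of the muscle fibre sum in cultured replicate 1, and Pecam1 gave 35.1 and 38.1 CPM of the endothelial sums in cultured replicates 1 and 3. Cdh5, Kdr, Tie1 and Cldn5 were at 0 in these libraries. Kdr, Tie1 and Cldn5 were also near 0 in run-2 fresh libraries (means of 0.063, 0.032 and 0 CPM). In cultured replicate 1, Flt1 had 2.00 and Tek 0.263 CPM, with Emcn and Esam at 0. In cultured replicate 3, Esam had 5.76, Tek 3.01, Emcn 0.102 and Flt1 0.051 CPM. The part of these markers in the order of the KLF genes was not tested.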
